A study of Homo sapiens with 12 samples.

Results

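Urea cycle genes were examined on 12 one-colour arrays of 2 human hepatocellular carcinoma cell lines, HA22T and PLC5. The 10 members were listed by their role: CPS1, OTC, ASS1, ASL and ARG1 for the cycle itself, NAGS for the activator of CPS1, SLC25A13 and SLC25A15 for its mitochondrial carriers, ARG2 for the mitochondrial arginase and GLUL for glutamine synthetase. They stand among 20239 genes that could be read from a named probe, and the arrays carry 13 probes for them. ASS1, ARG1 and SLC25A15 have 2 probes each and the other members have 1. Each line was transfected with 10 nM of a non-targeting siRNA (siControl) or of a pool of siRNAs against GALNT1 (siGALNT1), and total RNA was extracted 48 h later. The 4 groups, each with 3 arrays, were HA22T siControl, HA22T siGALNT1, PLC5 siControl and PLC5 siGALNT1. GALNT1 codes for an enzyme that starts mucin-type O-glycosylation, and its knockdown was the question of the study. The difference between the lines is a second comparison that the groups allow. Nothing in the labels says that the 3 arrays of a group came from separate cultures, so that the p-values below measure the spread between these arrays, which may be technical.

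The urea cycle turns ammonia, which is toxic to the brain, into urea that the kidney excretes, and the whole cycle runs in the periportal hepatocytes of the liver. CPS1 and OTC work inside the mitochondrion, where NAGS makes the N-acetylglutamate without which CPS1 is inactive, and ASS1, ASL and ARG1 work in the cytosol. GLUL is in the liver confined to the hepatocytes around the central vein, where it binds the ammonia that escaped the cycle. The cycle enzymes have other uses in tumor cells, in which ASS1 and ASL decide whether a cell can make its own arginine.

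All values are log2 intensities relative to the 75th percentile of the same array, called levels here. A level of 0 is as bright as that percentile. Each step of 1 is a doubling in brightness, and because probes differ in how well they bind, levels are compared between groups for one probe and never between genes. In a culture measured in bulk, fewer cells with a transcript and less of it per cell cannot be told apart. A gene was called different when limma's adjusted p was below 0.05. Of the 58717 spots of an array, 36679 to 48873 passed the scanner software's test for signal above background, and replicate arrays correlated at 0.969 to 0.988 over 22282 probes. Slide 1 held all 6 HA22T arrays together with PLC5 replicate 1 of both siRNAs, and slide 2 held the remaining 4 PLC5 arrays. Every comparison of the lines was therefore repeated with the slide as a block and on the first slide alone. The comparisons of the lines share their arrays with the comparisons of the siRNAs.

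To show control regions of members called between the lines, the 120 bases before a listed start are given for CPS1, GLUL, ARG2 and ASS1, 4 of the 6 that were called, with OTC, which was level across the lines, for contrast. They are RefSeq sequence of the build GRCh38.p14, read 5′ to 3′ on the strand of the gene. CPS1 has 3 listed starts and GLUL and ASS1 have 2 each, and the table does not tie them to the transcripts that the probes detect. The windows printed for these 3 genes are those that hold a motif that was searched for. The same stretch of SLC25A15, which was also called, held none of the motifs and is not printed, nor is that of ASL. Capitals mark matches on either strand to TGACGTCA (the cAMP response element), CACGTG (an E-box), CCAAT (the CCAAT box), TATAAA (the TATA box) or CTTTGA (the core that TCF factors bind).
CPS1, chr2:210519598-210519717, plus strand: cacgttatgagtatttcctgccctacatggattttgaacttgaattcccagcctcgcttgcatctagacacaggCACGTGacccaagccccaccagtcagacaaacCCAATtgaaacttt
GLUL, chr1:182391791-182391910, minus strand: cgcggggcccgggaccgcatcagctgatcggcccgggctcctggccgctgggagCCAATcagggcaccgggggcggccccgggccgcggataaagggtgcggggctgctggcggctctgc
ARG2, chr14:67619800-67619919, plus strand: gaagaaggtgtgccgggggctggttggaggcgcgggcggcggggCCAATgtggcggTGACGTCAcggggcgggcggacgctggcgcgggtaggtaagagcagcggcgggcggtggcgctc
ASS1, chr9:130444841-130444960, plus strand: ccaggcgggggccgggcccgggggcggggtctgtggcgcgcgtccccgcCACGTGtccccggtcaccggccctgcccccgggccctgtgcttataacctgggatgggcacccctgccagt
OTC, chrX:38352484-38352603, plus strand: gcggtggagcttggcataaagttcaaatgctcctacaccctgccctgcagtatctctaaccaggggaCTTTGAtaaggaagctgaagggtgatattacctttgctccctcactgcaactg
These letters describe the sequence and no binding was measured. Windows of 300 bases, 250 before and 50 after a start, were listed for all 10 members, 14 in all, among 35116 in the table. TGACGTCA was found in 1 member window, that of ARG2, which holds it at 172 and at 64 bases before the start, and in 1.85% of all windows. CACGTG was in the windows of 3 members, CPS1, ASS1 and SLC25A13, and in 7.26% of all windows. CCAAT was in windows of 5 members and in 34.61% of all. TATAAA was in those of ARG1 and OTC and in 11.53% of all, and CTTTGA was in that of OTC alone among the members and in 12.92% of all.

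**Figure D1:**
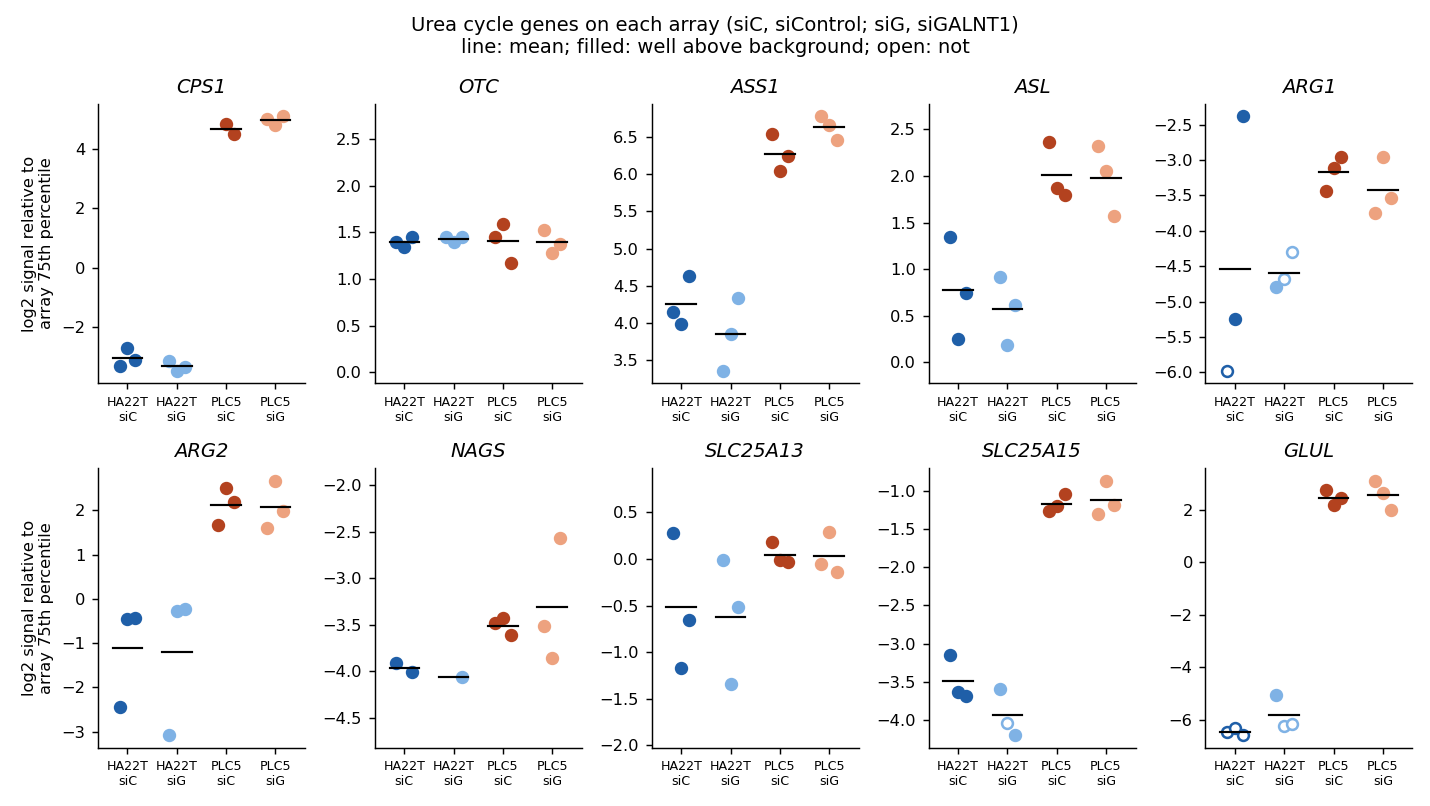
Level of each urea cycle gene on each array (log2 intensity relative to the 75th percentile of the array, a separate axis for each gene), by line and siRNA; points are arrays, lines are means, and open points were not well above background. CPS1 lay at -2.71 or lower on every HA22T array and at 4.51 or higher on the 5 PLC5 arrays that gave a value, OTC lay between 1.17 and 1.59 on all 12 arrays, and in PLC5 siGALNT1 and siControl overlapped for every gene.

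With siControl, 6 of the 10 members were higher in PLC5 than in HA22T and 0 were higher in HA22T. The 6 were CPS1, GLUL, ARG2, SLC25A15, ASS1 and ASL, of which GLUL entered the test through its PLC5 arrays alone. Over all 17417 genes tested in this comparison, 12.4% were called higher in PLC5 and 14.2% higher in HA22T. With siGALNT1 the same 6 members were higher in PLC5 and again 0 were higher in HA22T, against 15.0% and 11.6% of 17201 genes. Among the called probes of this second comparison, 42.8% were higher in HA22T, and 54.8% after quantile normalization, whereas the 6 members stayed on the same side under both. The median difference over the members, HA22T minus PLC5, was -1.69 with siControl and -2.10 with siGALNT1, where the median over all genes tested was 0.10 and 0.07. Median scaling and quantile normalization moved the median over all probes, to 0.16 from 0.04 with siControl and to 0.22 from 0.10 with siGALNT1 respectively. The comparisons with siControl and with siGALNT1 have no array in common. They still share the lines, the slides and the estimate of the spread, so they are not independent.

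CPS1, which makes carbamoyl phosphate from ammonia and bicarbonate and is the entry of the cycle, showed one of the largest differences. Its levels were -3.35, -2.71 and -3.12 in HA22T siControl and -3.15, -3.49 and -3.35 in HA22T siGALNT1. In PLC5 they were 4.86 and 4.51 with siControl, where the spot of replicate 1 was flagged as non-uniform and left out, and 5.03, 4.83 and 5.11 with siGALNT1. The lines were far apart and the siRNA groups overlapped within each line, and the HA22T spots were still well above background on all 6 arrays. The difference between the lines was -7.74 (standard error 0.29, adjusted p = 9.69e-08 from limma), a fold of 214, with siControl and -8.32 (standard error 0.26, adjusted p = 3.13e-08 from limma) with siGALNT1. With the slide as a block the values were -7.80 and -8.37, and on the first slide alone -8.37 with siGALNT1, the siControl value being lost with the flagged spot.

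OTC, the next enzyme in the mitochondrion, which joins carbamoyl phosphate to ornithine and makes citrulline, had levels of 1.39, 1.34 and 1.45 in HA22T siControl, 1.45, 1.39 and 1.45 in HA22T siGALNT1, 1.45, 1.59 and 1.17 in PLC5 siControl and 1.52, 1.28 and 1.38 in PLC5 siGALNT1. All 4 groups overlapped and no order of the groups could be read from them. The difference between the lines was -0.01 with siControl (95% interval -0.48 to 0.46, adjusted p = 0.982 from limma) and 0.04 with siGALNT1 (95% interval -0.43 to 0.50, adjusted p = 0.917 from limma), and its sign changed with the scaling. The single OTC probe was well above background on all 12 arrays. With no second probe, unspecific signal could not be told apart from OTC transcript.

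NAGS, whose product switches CPS1 on, was dim throughout and lost 3 of its 6 HA22T readings to the flag for non-uniform spots. Its levels were -3.91 and -4.01 in HA22T siControl, -4.06 on the single remaining HA22T siGALNT1 array, -3.48, -3.43 and -3.61 in PLC5 siControl and -3.51, -3.86 and -2.57 in PLC5 siGALNT1. The PLC5 arrays all lay above the HA22T arrays, yet the differences of -0.45 (adjusted p = 0.487 from limma) and -0.75 (adjusted p = 0.324 from limma) were not called. When the flagged spots were kept the difference turned to 0.23 and 0.45, so that NAGS has no settled direction here.

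Of the carriers that link mitochondrion and cytosol, SLC25A15, which brings ornithine in and citrulline out, was higher in PLC5. Its brighter probe had levels of -3.15, -3.64 and -3.69 in HA22T siControl, -3.59, -4.03 and -4.20 in HA22T siGALNT1, -1.27, -1.20 and -1.04 in PLC5 siControl and -1.31, -0.87 and -1.19 in PLC5 siGALNT1. The lines did not overlap. The difference was -2.32 (standard error 0.26, adjusted p = 6.42e-05 from limma) with siControl and -2.82 (adjusted p = 1.63e-05 from limma) with siGALNT1. The dimmer probe gave -1.85 (adjusted p = 0.0145 from limma) and -3.53 (adjusted p = 2.33e-04 from limma). SLC25A13, the aspartate and glutamate carrier citrin, supplies the aspartate that ASS1 uses. Its levels were 0.28, -1.16 and -0.65 in HA22T siControl, -0.01, -1.34 and -0.52 in HA22T siGALNT1, 0.18, -0.01 and -0.04 in PLC5 siControl and -0.05, 0.29 and -0.14 in PLC5 siGALNT1. The PLC5 arrays lay close together, and replicate 1 of HA22T lay among them while its other replicates were lower. Its differences of -0.56 (adjusted p = 0.381 from limma) and -0.66 (adjusted p = 0.271 from limma) were not called.

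In the cytosol, ASS1 joins citrulline and aspartate. Its levels were 4.15, 3.99 and 4.63 in HA22T siControl, 3.36, 3.85 and 4.34 in HA22T siGALNT1, 6.54, 6.05 and 6.25 in PLC5 siControl and 6.78, 6.66 and 6.45 in PLC5 siGALNT1. Every PLC5 array lay above every HA22T array, although the HA22T arrays were themselves far above the percentile. The difference was -2.02 (standard error 0.30, adjusted p = 5.00e-04 from limma), a fold of 4.06, with siControl and -2.78 (adjusted p = 5.12e-05 from limma) with siGALNT1. The second ASS1 probe gave -2.61 and -3.27 (adjusted p = 2.97e-04 and 6.14e-05 from limma).

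ASL splits argininosuccinate into arginine and fumarate. Its levels were 1.35, 0.25 and 0.74 in HA22T siControl, 0.91, 0.19 and 0.61 in HA22T siGALNT1, 2.36, 1.87 and 1.80 in PLC5 siControl and 2.32, 2.05 and 1.57 in PLC5 siGALNT1. The lines did not overlap, though the gap was small against the spread within HA22T. The difference was -1.23 (standard error 0.34, adjusted p = 0.0235 from limma) with siControl and -1.41 (adjusted p = 0.0119 from limma) with siGALNT1. On the first slide alone these were -1.58 (adjusted p = 0.130 from limma) and -1.75 (adjusted p = 0.0917 from limma), and the siControl call was also lost when HA22T siControl replicate 2 or 3, or PLC5 siControl replicate 1 or 2, was left out, with adjusted p of 0.0929, 0.0662, 0.0804 and 0.0518. The siGALNT1 call was lost without HA22T siGALNT1 replicate 2 (adjusted p = 0.0513 from limma).

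The 2 arginases, which release urea from arginine, differed in what the arrays could show. ARG1, the cytosolic enzyme of the liver cycle, was near the detection limit in HA22T: the brighter of its 2 probes had levels of -5.98, -5.25 and -2.38 in HA22T siControl and -4.79, -4.68 and -4.31 in HA22T siGALNT1, and 2 and 1 of these 3 arrays were well above background. In PLC5 it was well above background on all 6 arrays, at -3.43, -3.12 and -2.96 with siControl and -3.75, -2.96 and -3.54 with siGALNT1. HA22T siControl replicate 3 stood above every PLC5 array and the other HA22T arrays lay below all of them. The difference was -1.37 (standard error 0.71, adjusted p = 0.211 from limma) with siControl. It was -2.44 (adjusted p = 8.01e-04 from limma) without that array, which on the second ARG1 probe stood at -5.11, close to its replicates at -5.55 and -5.95. That second probe gave -1.51 (adjusted p = 0.0645 from limma). With siGALNT1 the brighter probe gave -1.17 (adjusted p = 0.264 from limma), and without HA22T siControl replicate 3, which enters only the shared estimate of the spread, its adjusted p was 0.0234.

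ARG2, the mitochondrial arginase found in many tissues, was well above background on all 12 arrays. Its levels were -2.45, -0.45 and -0.42 in HA22T siControl, -3.07, -0.28 and -0.23 in HA22T siGALNT1, 1.67, 2.49 and 2.18 in PLC5 siControl and 1.60, 2.67 and 1.98 in PLC5 siGALNT1. Replicate 1 of HA22T was low with both siRNAs, and the lines did not overlap. The difference was -3.22 (standard error 0.75, adjusted p = 0.00961 from limma) with siControl and -3.28 (adjusted p = 0.00884 from limma) with siGALNT1. With the slide as a block it was -2.76 (adjusted p = 0.0702 from limma) and -2.82 (adjusted p = 0.0586 from limma), so that the call was lost while the size moved little.

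GLUL, which makes glutamine from glutamate and ammonia and serves as the second route of ammonia removal in the liver, was bright in PLC5 and at or near background in HA22T. Its levels in PLC5 were 2.76, 2.19 and 2.45 with siControl and 3.11, 2.63 and 2.01 with siGALNT1. In HA22T they were -6.45, -6.33 and -6.58 with siControl, where no array was well above background, and -5.05, -6.23 and -6.18 with siGALNT1, where replicate 1 alone was. GLUL was therefore at least 260-fold higher in PLC5 with siControl, a bound taken against the lowest signal that counts as above background on each HA22T array. A probe can lie above that signal and still fail the scanner software's test. This bound and the later ones are therefore approximate. With siControl the fit gave an adjusted p of 8.42e-08 from limma for GLUL, which entered that comparison through its 3 PLC5 arrays alone. With siGALNT1 the fitted difference was -8.40 (standard error 0.37, adjusted p = 1.13e-07 from limma), a value that takes 2 background readings in HA22T as levels.

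**Figure D2:**
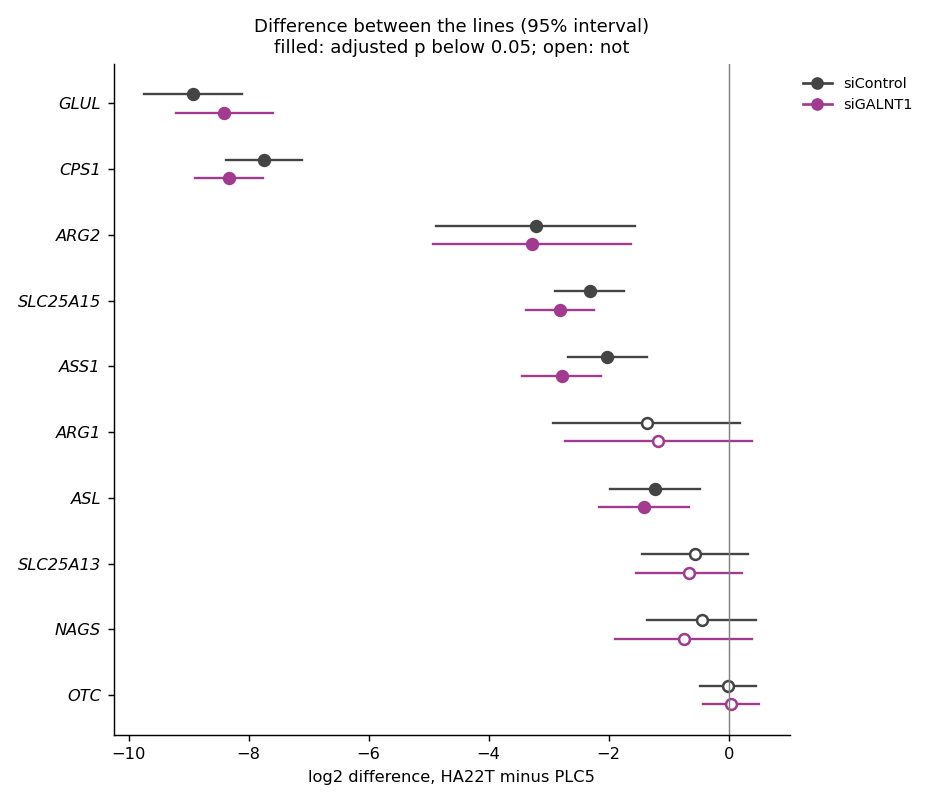
Difference between the lines for each urea cycle gene (log2, HA22T minus PLC5, with 95% intervals from limma), with siControl and with siGALNT1; filled points had an adjusted p below 0.05. The same 6 genes lay to the left of 0 with both siRNAs, from ASL at -1.23 and -1.41 to GLUL at -8.93 and -8.40, and the intervals of OTC, NAGS, SLC25A13 and ARG1 held 0. GLUL was above background on 0 of 3 HA22T arrays with siControl and on 1 of 3 with siGALNT1, so its plotted values are those of the fit and not bounds.

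The plot of line differences sets both siRNAs side by side. The 6 called genes were the same with each. On the first slide alone, with 3 HA22T arrays against 1 PLC5 array per siRNA and the lone array assumed to vary like the others, 3 members were still called with siControl and 4 with siGALNT1, all higher in PLC5, where 5.45% of 17219 genes and 5.85% of 17084 genes were called in that direction. GLUL, SLC25A15 and ASS1 were called in both and CPS1 with siGALNT1, with adjusted p between 3.21e-04 and 0.0337 from limma.

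GALNT1 siRNA did not change the urea cycle genes detectably. The target itself was lower on every siGALNT1 array than on every siControl array of the line. Its brighter probe differed by -5.10 in HA22T (adjusted p = 0.0708 from limma), and the difference in PLC5 was -3.72 (adjusted p = 1.00, limma), with an exact permutation p of 0.1, the smallest possible, in each. The dimmer GALNT1 probe differed by -4.75 in HA22T, where 1 of 3 siGALNT1 arrays was above background, and was the 1 probe of 36327 that limma called there (adjusted p = 0.0305). This call was lost when the fit had a replicate block (adjusted p = 0.107 from limma). In PLC5 it differed by -3.03 (adjusted p = 1.00, limma). Among the members, 0 of 9 tested in HA22T and 0 of 10 in PLC5 passed the adjusted threshold of limma, and 0 had an unadjusted p below 0.05 in either line on the probe the gene was read from. GLUL was too dim for the test in HA22T, where its siGALNT1 arrays lay above its siControl arrays but 5 of the 6 were not above background. Over all genes 0% of 16967 in HA22T and 0% of 17316 in PLC5 were called, and 448 and 138 had an unadjusted p below 0.05. The test of the methods, with a fold over 1.5 and an unadjusted p under 0.05, likewise found 0 members in each line, against 1.77% of the genes in HA22T and 0.549% in PLC5. Read from the same probes, the test of whether the siRNA effect differed between the lines called 0 members and 0% of 17893 genes, with 336 genes and 0 members at an unadjusted p below 0.05.

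After siGALNT1 the 95% interval of every member, on the probe it was read from, held 0 in both lines. In HA22T, GLUL differed by 0.64 (95% interval -0.18 to 1.45) in readings mostly at background. Of the tested members there, SLC25A15 differed by -0.45 (95% interval -1.02 to 0.12), ASS1 by -0.41 (95% interval -1.07 to 0.25) and CPS1 by -0.27 (95% interval -0.84 to 0.29). In PLC5 ARG1 differed by -0.25 and NAGS by 0.19, and the values were 0.35 for ASS1 (95% interval -0.30 to 1.01), 0.31 for CPS1 (95% interval -0.32 to 0.94) and 0.05 for SLC25A15 (95% interval -0.52 to 0.62). The intervals of OTC were the narrowest, -0.43 to 0.51 in HA22T and -0.47 to 0.46 in PLC5. Those of ARG2 reached -1.75 and 1.57 in HA22T and -1.69 and 1.63 in PLC5. Those of ARG1 reached -1.61 and 1.50 in HA22T and -1.80 and 1.31 in PLC5. In HA22T that of NAGS reached -1.32 and 1.11. For these, a change by a factor of 2 in either direction lay within the interval. With the replicate number as a block the ARG2 interval was -0.67 to 0.49 in HA22T and -0.61 to 0.55 in PLC5. On the probes that genes were read from, ASS1 had the smallest p of the members in the test between the lines, at a difference of -0.76 in the siRNA effects (standard error 0.42, unadjusted p = 0.0989, adjusted p = 0.989 from limma).

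Same-numbered HA22T arrays can also be read as pairs. SLC25A15 was lower with siGALNT1 in each of the 3 pairs, with differences of -0.44, -0.40 and -0.51. ASS1 was lower in each as well on its brighter probe, at -0.79, -0.14 and -0.29, and so was ASL, at -0.44, -0.06 and -0.13. The second ASS1 probe was not lower in each, at -0.70, 0.10 and -0.37. GLUL and OTC went the other way and were higher in each of the 3 pairs, GLUL in readings mostly at background. How often all 3 pairs share a sign over all genes was not counted, so no shift of the members as a set can be read from these pairs. Neither SLC25A15, ASS1 nor ASL was called with the replicate number as a block. There SLC25A15 had a 95% interval of -0.93 to 0.04 (adjusted p = 0.821 from limma) and ASS1 one of -0.95 to 0.13 (adjusted p = 0.827 from limma).

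One probe stood apart from this. The dimmer SLC25A15 probe had levels of -4.40, -5.14 and -3.15 in HA22T siControl and -4.91, -6.19 and -6.05 in HA22T siGALNT1, where 1 of 3 arrays was well above background. It differed by -1.49 (unadjusted p = 0.00851, adjusted p = 1.00 from limma), while the brighter probe of the same gene gave -0.45. Its pairs differed by -0.51, -1.05 and -2.90. Its siRNA effect differed between the lines by -1.68 (unadjusted p = 0.0267, adjusted p = 0.989 from limma). The HA22T groups overlapped on both probes. In PLC5 the dimmer probe differed by 0.20, with every siGALNT1 array above every siControl array (exact permutation p = 0.1, the smallest possible).

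**Figure D3:**
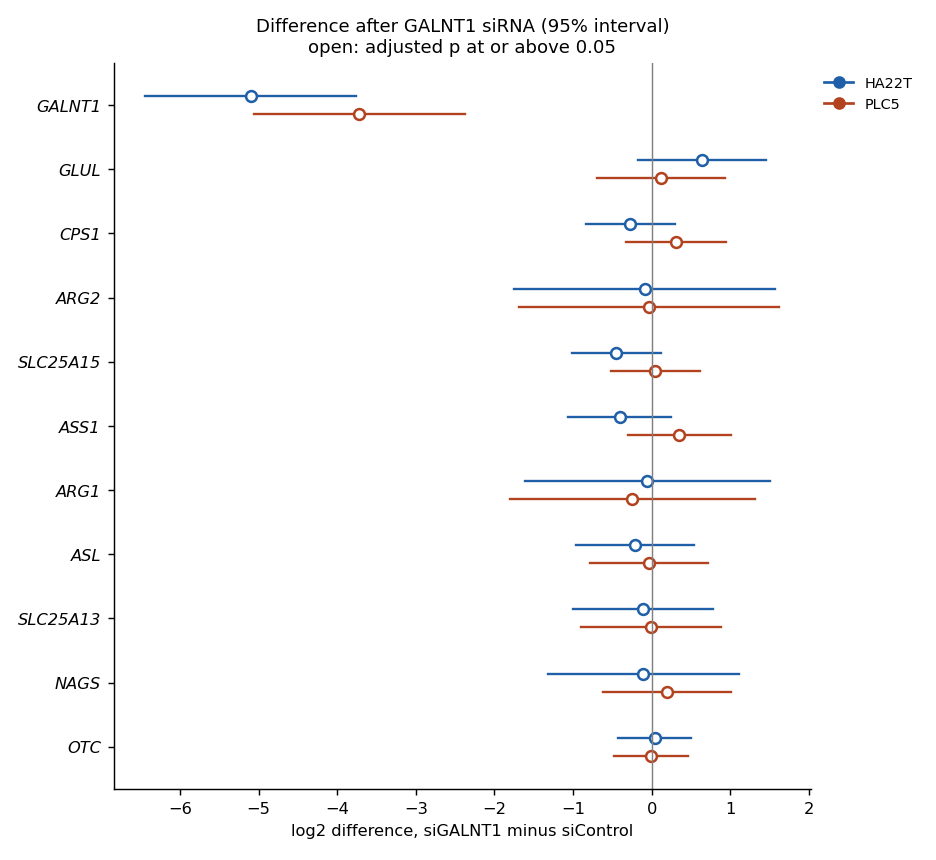
Difference after GALNT1 siRNA (log2, siGALNT1 minus siControl, with 95% intervals from limma) for GALNT1 and each urea cycle gene, in HA22T and in PLC5; open points had an adjusted p of 0.05 or more. GALNT1 lay at -5.10 and -3.72, and the interval of every urea cycle gene held 0 in both lines.

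Within HA22T, arrays of the same replicate number lay together for several members. Replicate 1 was the lowest for ARG2 and the highest for ASL, SLC25A13 and SLC25A15 with both siRNAs, and replicate 3 was the highest for ASS1 with both. The SD of ARG2 was 1.16 with siControl and 1.63 with siGALNT1 (n = 3), and that of SLC25A13 was 0.73 and 0.67 (n = 3). OTC had SDs of 0.05 and 0.03 (n = 3) on the same arrays. In PLC5 the SDs of the members with siControl ran from 0.09 for NAGS to 0.42 for ARG2 (n = 3, and 2 for CPS1).

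Genes around the cycle were read from a list of 44 that supply or use its intermediates, of which 41 were bright enough to test between the lines. With siControl 12 were higher in PLC5 and 3 higher in HA22T, and with siGALNT1 13 and 1. Over all genes tested, 12.4% were called higher in PLC5 and 14.2% higher in HA22T with siControl, and 15.0% and 11.6% with siGALNT1. The median difference of the list was -0.59 and -0.55. As with the members, 0 of 39 in HA22T and 0 of 41 in PLC5 were called after siGALNT1, and 0 and 1 had an unadjusted p below 0.05. The 1 gene was GPT, an alanine aminotransferase, at -0.71 in PLC5, named after its value was seen.

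The list falls into 5 groups. Of the genes of glutamine, glutamate and ammonia, 5 of 12 tested were higher in PLC5 with siControl and 0 in HA22T. They included GPT2, the mitochondrial alanine aminotransferase, at -3.59 (adjusted p = 2.11e-06 from limma). GLUD1 and GLUD2, which are also on this list, are nearly identical and their probes may share signal. Among the genes of arginine, ornithine and proline, 4 of 12 were higher in PLC5 and 0 in HA22T.

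Those 4 were led by AGMAT, a member of the ureohydrolase family to which the arginases also belong. Its levels were 1.34, 0.53 and 0.80 in PLC5 siControl and 0.92, -0.02 and -0.37 in PLC5 siGALNT1, and no HA22T array was well above background with either siRNA. AGMAT entered the test through its PLC5 arrays alone. It was at least 86.9-fold higher in PLC5 with siControl and at least 33.0-fold with siGALNT1. The fit gave adjusted p of 6.17e-07 and 2.36e-06 from limma, values that take the background readings in HA22T as levels. PRODH, which starts proline breakdown, differed by -2.76 (adjusted p = 2.69e-05 from limma) and SLC7A2, an importer of arginine, by -1.94 (adjusted p = 0.00102 from limma). OAT, which moves ornithine towards glutamate and proline, differed by -1.40 (adjusted p = 0.00203 from limma).

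Polyamine genes went both ways with siControl. SMOX, the spermine oxidase, was higher in PLC5 at -2.50 (adjusted p = 6.33e-04 from limma), and AZIN1 and OAZ1, which regulate ornithine decarboxylase in opposite ways, were higher in HA22T at 1.37 (adjusted p = 0.0164 from limma) and 1.25 (adjusted p = 0.0177 from limma). With siGALNT1 these last 2 were not called, and 3 of the 9 polyamine genes were higher in PLC5 and 0 in HA22T. Of the bicarbonate and mitochondrial carrier genes, SLC25A22, a glutamate carrier, was higher in HA22T at 1.50 (adjusted p = 0.00150 from limma) with siControl and at 1.69 (adjusted p = 7.07e-04 from limma) with siGALNT1. CAD, UMPS and DHODH carry carbamoyl phosphate into pyrimidines, and 0 of these 3 were called with either siRNA by limma, with 1 at an unadjusted p below 0.05 in each. CA5A, the mitochondrial carbonic anhydrase that supplies bicarbonate to CPS1, was higher in PLC5 with siControl at -1.22 (adjusted p = 0.0463 from limma). It was not called with siGALNT1 and was named after its value was seen. On the first slide alone 4 of 41 tested genes were called with either siRNA, where 1803 of 17219 genes and 1809 of 17084 genes were.

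**Figure D4:**
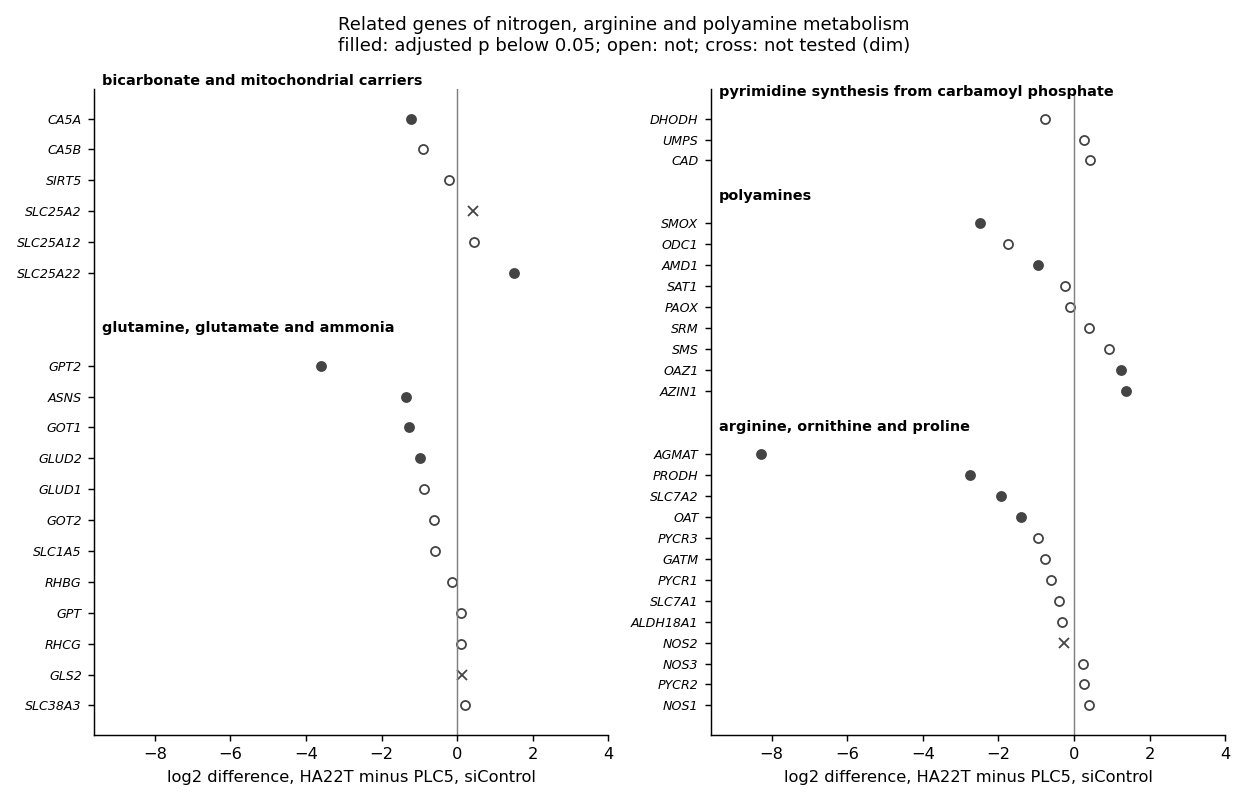
Difference between the lines with siControl (log2, HA22T minus PLC5) for the genes around the urea cycle that are reported here, in 5 groups; filled points had an adjusted p below 0.05 in limma's test, open points did not, and crosses were too dim to test. AGMAT at -8.29 and GPT2 at -3.59 lay farthest to the left, and SLC25A22, AZIN1 and OAZ1 were the filled points to the right of 0. AGMAT was below detection in HA22T, so its point is the fitted value.

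The division of the liver lobule between the cycle and glutamine synthesis did not divide the lines. Both CPS1 and ASS1, periportal genes, and GLUL, a perivenous gene, were higher in PLC5. In lists of genes that mark the 2 zones, which hold these members too, 6 of 8 tested periportal genes were higher in PLC5 and 0 in HA22T with siControl. Besides the members they were HAL, the histidine ammonia lyase, PCK1, TAT and SDS. Of 13 tested perivenous genes, 6 were higher in PLC5, among them LGR5 and RNF43 at -3.68 (adjusted p = 1.88e-05 from limma), and 1, SP5 at 3.50 (adjusted p = 4.48e-06 from limma), was higher in HA22T. HAL was at least 16.2-fold and LGR5 at least 9.13-fold higher in PLC5, neither being above background on any HA22T siControl array. Like GLUL, both entered the test through their PLC5 arrays alone. Over all genes tested with siControl, 12.4% were called higher in PLC5 and 14.2% higher in HA22T. With siGALNT1 the counts were the same, 6 and 0 for the periportal and 6 and 1 for the perivenous list. There 15.0% of all genes were called higher in PLC5 and 11.6% higher in HA22T.

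Hepatocyte genes as a whole moved with these results. Of 17 hepatocyte markers, 14 were higher in PLC5 and 0 in HA22T with either siRNA, with a median difference of -5.03 with siControl, also with APOH at its bound, and AFP and FOXA1 were among those not called. Their mean levels ran from -7.44 to 2.31 in HA22T siControl and from -4.21 to 5.77 in PLC5 siControl. In HA22T siControl 10 of the 17 were well above background on all 3 arrays and 1, APOH, on none. In PLC5 siControl all 17 were above it on all 3 arrays. APOH, and with siGALNT1 also TTR, entered the test through the PLC5 arrays alone. Over all genes, 12.4% with siControl and 15.0% with siGALNT1 were called higher in PLC5, and 14.2% and 11.6% higher in HA22T. ALB differed by -3.96 (adjusted p = 1.01e-04 from limma) and HNF4A, a regulator of liver genes, by -3.24 (adjusted p = 2.11e-04 from limma). Of 5 tested mesenchymal markers, VIM at 5.54, SPARC and ZEB1 at 2.01 were higher in HA22T, and FN1 at -3.60 was higher in PLC5. SPARC was at least 14.7-fold higher and entered the test through its HA22T arrays alone, as no PLC5 siControl array was above background. The endothelial marker PECAM1 was higher in PLC5 at -5.41, and the leukocyte marker CD14 was higher in HA22T at 3.86. The epithelial list had 0 calls of 3 tested by limma and 2 at an unadjusted p below 0.05. The part of these genes in the differences of the urea cycle genes was not tested.

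The genes whose pattern over the arrays was most like that of CPS1 were FGG, TCIM, APOB, FGA and GPC3, with Pearson r between 0.9975 and 0.9981 over the 11 arrays that measured CPS1. FGG and FGA code for fibrinogen chains and APOB for an apolipoprotein of the liver. The arrays form 2 clusters, 1 for each line, and r is then set mainly by the gap between the lines: 688 of 15407 genes had an r above 0.95 with CPS1. Among the members, GLUL, SLC25A15 and ASS1 had an r of 0.993, 0.978 and 0.961 with CPS1, and OTC one of -0.10.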

How the data were processed

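Total RNA of HA22T and PLC5 cells was measured on 12 one-colour arrays, 3 per group. The authors labeled cDNA and read the images with Agilent Feature Extraction 10.5.1.1. The deposited intensity is the processed signal, with background already subtracted, and the spot and background medians stand beside it with flags such as non-uniform. The authors also deposited a log2 table, scaled so that the 75th percentile of each column is at 0. Levels are log2 of the processed signal minus that percentile over all spots that are not controls. Non-uniform spots were then left out and spots of a probe averaged, which gave 50599 probes. Of these, 28174 were named through RefSeq accessions in a table of GRCh38.p14, whose coordinates were not used for probes.

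The 4 groups were fitted together with limma 3.58.1 (R 4.3.3). Benjamini-Hochberg adjustment ran over probes that the scanner software flagged as above background on 3 or more of the 6 arrays compared, and genes were read from their brightest probe with a value in every group. A bound replaced the fold for probes that no array of a group measured above background. The fit was tested on simulated data. The members, gene lists and tests were chosen with earlier results of these data known. Some genes of the lists are counted but not reported here by name. All members were to be named, and other listed genes only when called, at most 6 per direction, with the 5 genes most like CPS1. Endothelial, leukocyte, epithelial and mesenchymal markers were read the same way. An exact permutation test of 3 against 3 arrays cannot go below 0.1.

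HA22T arrays were also read as pairs by replicate number, although no label says that they are. Deviations from the group means correlated at 0.526, 0.264 and 0.338 between same-numbered HA22T arrays. In PLC5 these were 0.580, 1.0e-04 and 0.182. No such correlation is given for arrays of different number, so the pairing was not tested. Slides, read from the file headers, coincide with scan times. The alternatives tried were normexp background correction, quantile normalization, median scaling, the deposited table, other filters on dim probes and non-uniform spots kept. Others were the slide or replicate number as a block, the first slide alone and the 2 groups compared alone. The rest were a trend or counted probes for the prior, the mean over probes, a t-test and each array left out. Normexp used median spot signals, since means are not among the columns. Promoter windows are those of RefSeq on GRCh38.p14.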

Additional observations from a re-analysis of the deposited data

How the results depend on the processing

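In the comparisons of the lines, CPS1, GLUL, SLC25A15 and ASS1 kept their direction and their call under every alternative that could test them. A filter asking for all 6 arrays left CPS1 (siControl), GLUL and SLC25A15 (siGALNT1) untested. The count of members called was 3 on the first slide alone with siControl against 6, and the related genes called were 4 on it with either siRNA, against 15 and 14, with fewer arrays and no siControl value of CPS1. Single arrays left out gave 5 to 6 members with siControl and 5 to 7 with siGALNT1, 12 to 16 and 12 to 15 related genes, and 0 in both siRNA comparisons and in the test between the lines. ASL with siControl was also lost under median scaling (adjusted p = 0.0532 from limma). By the t-test ASL had an adjusted p of 0.106 and 0.0672 and ARG2 of 0.0584 and 0.127. That test gave 4 members with each siRNA after adjustment, and 6 and 7 at the threshold of the methods, where 20.8% and 13.3% of all genes passed after adjustment and 33.8% and 31.4% at that threshold. ARG2 on the first slide alone had an adjusted p of 0.269 and 0.233. The replicate block, run for the siRNA comparisons, left the members called at 0 in both lines and in the test between them, and the related genes called at 0 in both lines. In HA22T it lost the 1 probe called among all, the dimmer GALNT1 probe.

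Uncalled differences changed sign as follows, and the cause was not tested. After siGALNT1 in HA22T, OTC was -0.039 under median scaling, ARG1 was 0.0042 under quantile normalization and 0.27 as the mean over probes, and NAGS was 0.40 in the deposited table and 0.41 with non-uniform spots kept. In PLC5, OTC was 0.0096 under quantile normalization, 0.0119 under median scaling and 0.0022 in the deposited table, and SLC25A13 was 0.0129, 0.011 and 0.0013. Between the lines with siControl, OTC was 0.0229 under quantile normalization, 0.11 under median scaling and 0.029 in the deposited table, and NAGS was 0.27 in that table and 0.23 with non-uniform spots kept. With siGALNT1, OTC was -0.0473 with the slide as a block and -0.0887 on the first slide, and NAGS was 0.46 in the deposited table and 0.45 with non-uniform spots kept.

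Leaving out single arrays in HA22T after siGALNT1, ASL ran from -0.47 to 0.0769, ARG1 from -0.78 to 1.02, ARG2 from -0.76 to 0.85 and SLC25A13 from -0.44 to 0.28. In PLC5, OTC ran from -0.12 to 0.0849, ASL from -0.20 to 0.17, ARG2 from -0.32 to 0.21, NAGS from -0.18 to 0.47, SLC25A13 from -0.14 to 0.0767, SLC25A15 from -0.0787 to 0.14 and GLUL from -0.15 to 0.40. Between the lines, OTC ran from -0.13 to 0.0836 with siControl and from -0.0166 to 0.10 with siGALNT1. Signal over background limits GLUL, ARG1 and NAGS in HA22T.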
